A study of Mus musculus with 6 samples.

Results

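The Trem and Cd300 genes encode immunoglobulin-type receptors on the surface of myeloid cells, and Tyrobp encodes DAP12, the membrane adaptor through which several of them signal. Receptors of the activating kind have a short tail and pair with DAP12, whose cytoplasmic activation motif (ITAM) recruits the kinase SYK. Inhibitory relatives carry tail motifs (ITIMs) that recruit phosphatases such as SHP-1, so that a family holds receptors of opposite sign that can meet similar ligands. In monocytes, macrophages, neutrophils, osteoclasts and microglia these receptors are known for tuning inflammatory responses and the uptake of dying cells and lipids.

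The 10 genes described here are Trem1, Trem2, Trem3, Treml4, Treml2, Treml1, Tyrobp, Cd300lb, Cd300lf and Cd300a. They were taken by gene symbol from the deposited fold-change table, which names 22319 distinct genes after symbols were updated, and each of the 10 was read by 1 probe set. RNA came from mouse bone marrow cells, first selected as c-kit+ and transformed by MLL-AF9, a fusion oncoprotein of acute myeloid leukemia. Both groups carry MLL-AF9. One group (n = 3 arrays) received the empty retroviral vector pMIG, which marks cells with GFP, and the other (n = 3 arrays) received pMIG-TGIF1, which is labelled as expressing the homeodomain repressor TGIF1. GFP-positive cells were sorted 3 days after transduction and grown for 1 more day before lysis. From each sample 300 ng of RNA was labelled for Affymetrix Mouse Gene 1.0 ST arrays. The labels name no separate cultures or animals for the arrays, so the p-values reflect sample-to-sample spread that may be only technical. Values are RMA intensities on a linear scale, and the number of arrays limits their precision. The tables give no detection call, so whether a dim probe set lay above background was not tested.

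The single Tgif1 probe set went against the label. Its intensity was 320, 376 and 408 with the empty vector and 239, 239 and 258 in the TGIF1-labelled arrays (log2 fold change -0.58 ± 0.11 SE, limma adjusted p = 0.00286). Whether its probes lie in the sequence that the vector carries was not tested, so every direction below rests on the labels. The labelled cell type was checked on 8 progenitor and myeloid genes, of which 1 rose and 5 fell. The pan-leukocyte gene Ptprc read 1768 to 1869 in pMIG and 2470 to 3121 in the TGIF1-labelled arrays. Meis1, a target of MLL fusions, read 1085 to 1096 in pMIG and 429 to 597 in the TGIF1-labelled arrays. Kit, on which the cells were first selected, read 370 to 474 in pMIG and 295 to 344 in the TGIF1-labelled arrays. Cd34 read 43.1 to 59.3 in pMIG and 35.6 to 39.9 in the TGIF1-labelled arrays. In limma 24.7% of all 25123 named probe sets were called at an adjusted p under 0.05, 11.5% higher and 13.2% lower. The share of calls that were higher was 46.6%, and 29.9% after each array was centred on its median. That centring moved the median log2 fold change of all probe sets from 0.010 to -0.11, a shift of -0.12.

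Of the 10 genes, 7 rose in the TGIF1-labelled arrays and 0 fell, against a background of 11.5% called higher and 13.2% called lower. At an unadjusted limma p under 0.05 the counts were 8 and 0. The genes that rose were Treml4 (3.34-fold), Trem2 (3.07-fold), Treml1 (2.00-fold), Cd300lf (1.90-fold), Trem1 (1.88-fold), Treml2 (1.76-fold) and Cd300a (1.47-fold). Trem3, Tyrobp and Cd300lb were not called. In 8 of the 10 genes all 3 TGIF1-labelled arrays lay above all 3 pMIG arrays, where 18.7% of all probe sets did so. The median log2 fold change was 0.86 over the 10 genes and 0.010 over all probe sets. In bulk RNA, more cells of a type and more RNA per cell cannot be told apart. Markers of monocytes and macrophages did not all move with these genes. Of 8 such markers 5 rose, 1 (Cx3cr1) fell, and Csf1r and Itgam were not called. The mean log2 intensity of the 8 ranged from 9.71 to 9.81 over the pMIG arrays and from 10.33 to 10.44 over the TGIF1-labelled arrays. The part of such cells in the result was not tested.

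**Figure D1:**
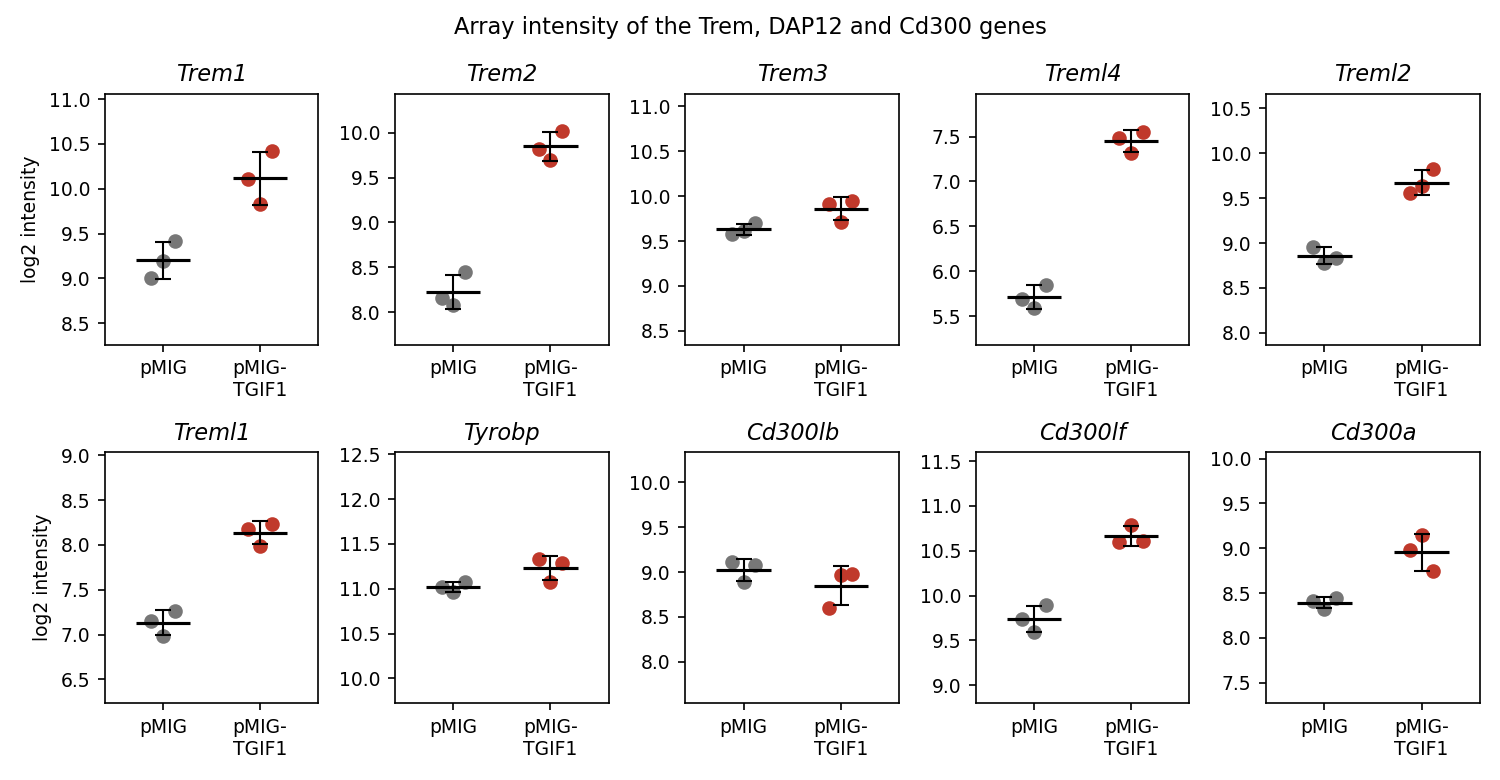
Log2 array intensity (vertical axis, equal span in all panels) of the 10 genes in the 3 pMIG arrays (grey) and the 3 TGIF1-labelled arrays (red), with bars for the mean and the SD. The groups are apart in 8 panels and overlap for Tyrobp and Cd300lb.

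Of the Trem receptors that pair with DAP12, Trem1, Trem2 and Treml4 rose and Trem3 was not called. Trem2, a lipid-sensing receptor of macrophages, microglia and osteoclasts, read 286, 270 and 348 in pMIG and 904, 832 and 1039 in the TGIF1-labelled arrays. The groups were far apart relative to their spread (log2 fold change 1.62 ± 0.12 SE, 95% CI 1.34 to 1.90, limma adjusted p = 1.04e-05). Treml4, which binds dying cells on dendritic cells and macrophages, read 51.7, 48.1 and 57.7 against 179, 159 and 188. This was the largest change among the 10 genes (1.74 ± 0.11, 95% CI 1.50 to 1.98, limma adjusted p = 2.36e-06).

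Trem1, the receptor known to amplify inflammatory responses of neutrophils and monocytes, read 512, 586 and 683 in pMIG and 1101, 911 and 1368 in the TGIF1-labelled arrays. It rose with a wider spread within both groups than the other 5 Trem genes of the set (log2 fold change 0.91 ± 0.16, 95% CI 0.57 to 1.26, limma adjusted p = 0.00151). Without variance moderation, at the same fold, its call was lost (adjusted p = 0.0678). Trem3, an activating receptor that mice use, read 767, 783 and 830 against 962, 839 and 990. All 3 TGIF1-labelled arrays lay above the pMIG arrays, but the lowest of them was close to the highest pMIG array, and the difference of 0.23 ± 0.099 on the log2 scale (95% CI 0.0074 to 0.45) was not called (limma adjusted p = 0.133).

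The TREM-like genes Treml2 and Treml1 rose as well. Treml2, found on B cells, macrophages and neutrophils, read 498, 440 and 457 in pMIG and 756, 795 and 907 in the TGIF1-labelled arrays (log2 fold change 0.81 ± 0.10, limma adjusted p = 0.000239). Treml1 encodes a receptor with an ITIM that platelets store in their granules. It read 142, 127 and 154 against 290, 254 and 302, with the groups well apart (1.00 ± 0.11, limma adjusted p = 9.04e-05). Among 7 measured platelet and megakaryocyte markers 1 (Vwf) rose and 0 fell in limma, with 1 and 1 at an unadjusted p under 0.05. Their mean log2 intensity ranged from 5.46 to 5.51 in pMIG and from 5.50 to 5.61 in the TGIF1-labelled arrays. The glycoprotein gene Gp9 read 67.5 to 80.5 in pMIG and 64.0 to 66.2 in the other group.

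Tyrobp, the shared adaptor, was not called. It read 2082, 1995 and 2165 in pMIG and 2577, 2161 and 2494 in the TGIF1-labelled arrays, where replicate 2 fell inside the pMIG range. The log2 difference was 0.21 ± 0.10, and its 95% CI of -0.013 to 0.43 holds rises of up to 1.35-fold (limma adjusted p = 0.174). Fcer1g, the Fc receptor gamma chain that serves other activating receptors in the same way, differed by 0.21 ± 0.10 (limma adjusted p = 0.180). Hcst, which encodes the adaptor DAP10, fell by 0.44 on the log2 scale (SE 0.10, limma adjusted p = 0.00989). That call was lost without pMIG replicate 3 (-0.36, adjusted p = 0.0507) and without moderation (adjusted p = 0.0622).

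Both inhibitory Cd300 receptors of the set rose, and the activating one was not called. Cd300lf, an inhibitory receptor that binds phosphatidylserine, read 853, 774 and 950 in pMIG and 1544, 1767 and 1566 in the TGIF1-labelled arrays (log2 fold change 0.92 ± 0.11, limma adjusted p = 0.000140). Cd300a, a second inhibitory receptor for lipids of dying cells, read 340, 321 and 348 against 504, 566 and 428. It rose by 0.56 ± 0.11 (limma adjusted p = 0.00436), a call that was lost without moderation (adjusted p = 0.0623). Cd300lb, the activating receptor of the set that pairs with DAP12, read 554, 473 and 542 against 388, 502 and 505. The groups overlapped, and the log2 difference of -0.18 ± 0.12 (95% CI -0.45 to 0.098, limma adjusted p = 0.374) was not called. The authors' deposited table gives Cd300lb a fold change of -1.13 with p = 0.29, Tyrobp 1.16 with p = 0.07 and Trem3 1.17 with p = 0.05.

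Differences between genes were compared within arrays, in 5 pairs chosen after their values were seen. Each ratio is set to a mean of 0 in the pMIG arrays on the log2 scale. Trem2 over Tyrobp lay between -0.091 and 0.16 in pMIG and between 1.28 and 1.53 in the TGIF1-labelled arrays with a mean of 1.41. The mean was 0.71 for Trem1 over Tyrobp and 0.69 for Trem1 over Trem3, with no overlap between the groups in either pair. For Cd300lf over Cd300lb it was 1.10 (0.92 to 1.28 against -0.090 to 0.095 in pMIG). For Cd300a over Cd300lb it was 0.74, with a wide range of 0.39 to 1.01 in the TGIF1-labelled arrays. Each pair sets a called gene against one that was not called, so these values are a description with no test.

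**Figure D2:**
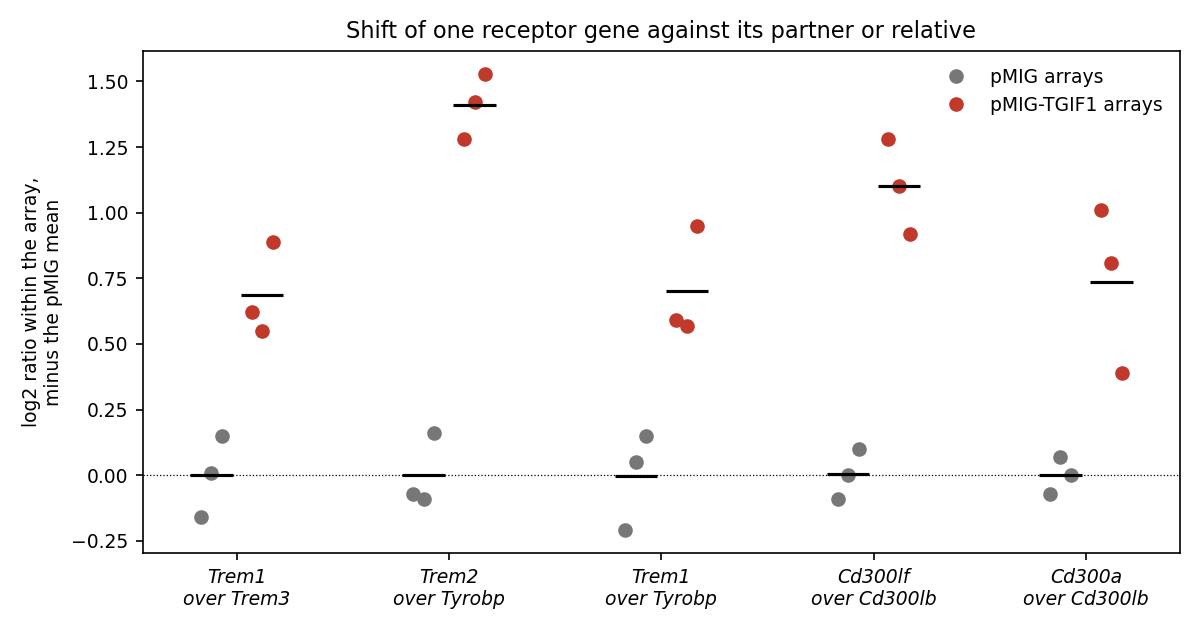
Log2 ratio of the first gene to the second within each array, minus the mean of the pMIG arrays (vertical axis), for 5 pairs, with grey points for pMIG, red points for pMIG-TGIF1 and a line at each group mean. All red points lie above all grey points of their pair, by the widest margin for Trem2 over Tyrobp.

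In the order of the RefSeq annotation of GRCm38.p6, the Trem genes stand side by side among the measured genes of chromosome 17. Most Cd300 genes form a cluster on chromosome 11, with Rab37 inside it. Of the 9 Trem genes measured in the chromosome 17 cluster, 8 rose and 0 fell (9 and 0 at an unadjusted limma p under 0.05), with a median log2 fold change of 1.00. Over all probe sets 11.5% were called higher and 13.2% lower. Beyond the 6 genes above these include 3 that RefSeq lists under clone names with a Trem synonym, 2 of which were named after their values were seen. A530064D06Rik (synonym Trem4) read 202, 151 and 225 in pMIG and 763, 672 and 832 in the TGIF1-labelled arrays, a 3.96-fold rise that exceeded that of Treml4 in size (limma adjusted p = 8.23e-06). B430306N03Rik (synonym Treml6) rose 2.89-fold and 9830107B12Rik (synonym Trem5) 1.73-fold. Of the 4 measured genes nearest to the cluster on each side, 8 in all, 0 were called in limma (0 higher and 1 lower at an unadjusted p under 0.05), and their log2 fold changes ran from -0.23 (Nfya) to 0.24.

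Of the 8 measured genes of the Cd300 cluster 5 rose and 1 fell (11.5% higher and 13.2% lower among all probe sets), with a median log2 fold change of 0.66. Cd300c (2.69-fold), Cd300e (2.69-fold), an activating receptor of monocytes, and Cd300ld5 (1.69-fold) rose beside Cd300lf and Cd300a. Cd300ld, an activating receptor that pairs with the Fc receptor gamma chain, read 577, 534 and 686 in pMIG and 271, 301 and 395 in the TGIF1-labelled arrays and fell by 0.90 on the log2 scale (SE 0.15, limma adjusted p = 0.00121). This fall was lost without moderation (adjusted p = 0.0609). Of 9 other genes in and around the cluster 1 fell (Kif19a) and 0 rose in limma, with 3 and 1 at an unadjusted p under 0.05. Rab37, which lies between Cd300e and Cd300lf, was among those not called. Cd300 genes are similar in sequence, and whether their probe sets read more than 1 of them was not tested. Cd300lg, elsewhere on chromosome 11, rose 2.02-fold.

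**Figure D3:**
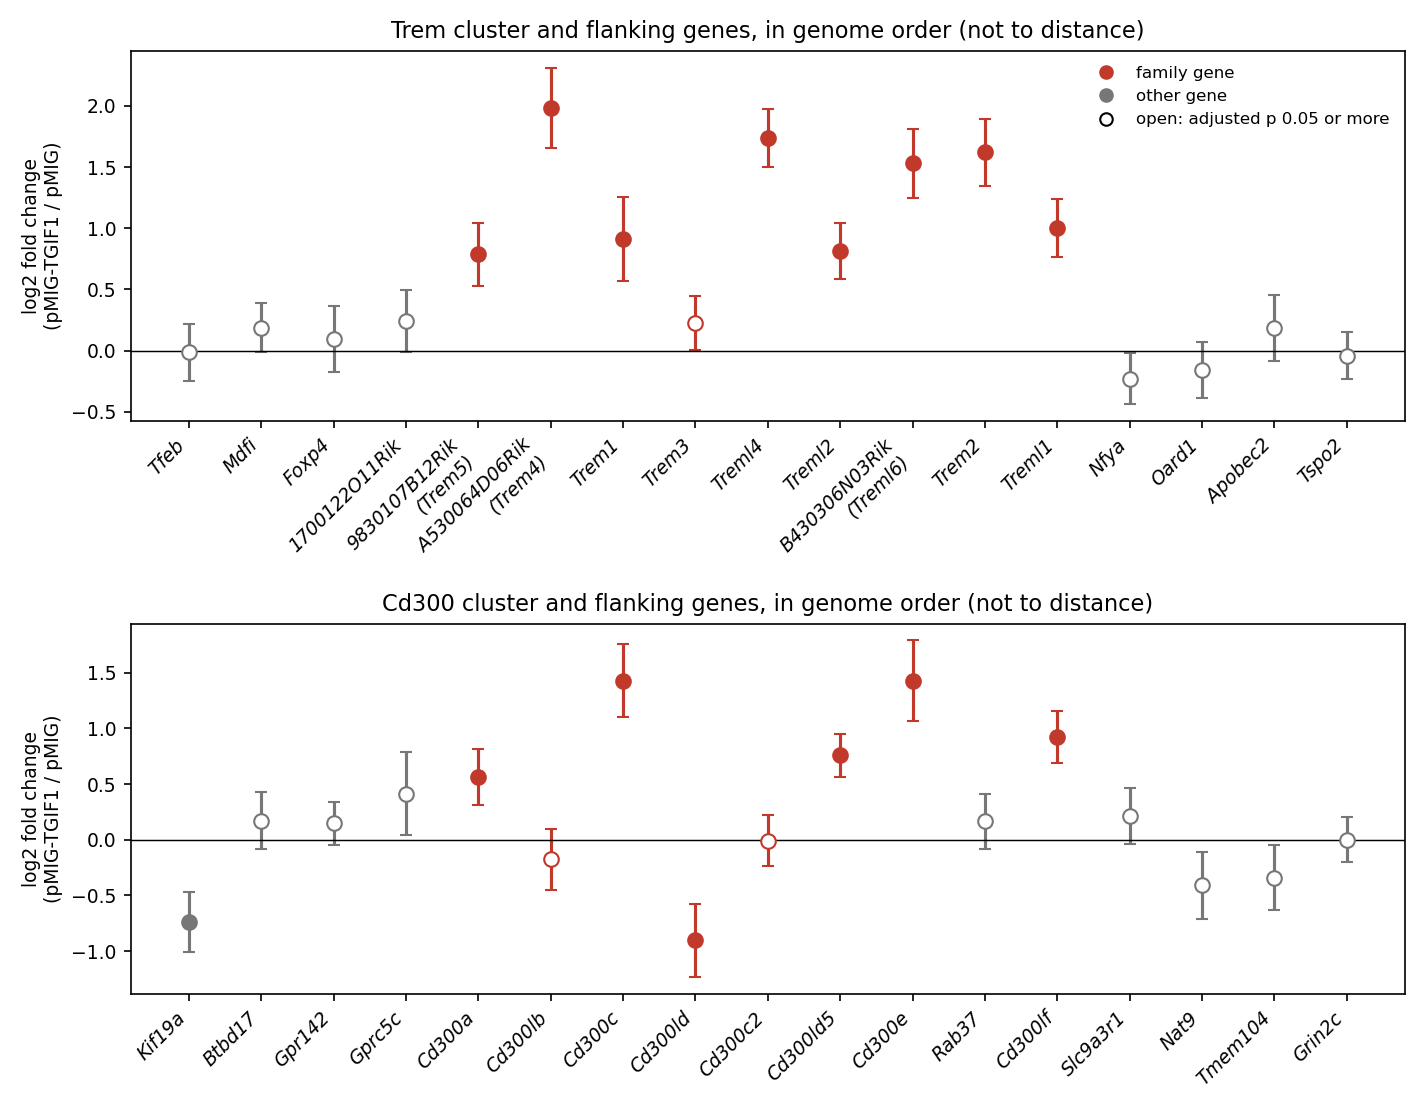
Log2 fold change of pMIG-TGIF1 over pMIG with its 95% CI (vertical axis) for measured genes of the Trem cluster (top) and the Cd300 cluster (bottom). Genes are in genome order, red for family genes and grey for other genes, with open points for genes not called. Rab37 lies inside the Cd300 cluster, and the other grey genes flank a cluster. The Trem genes lie above 0 while the genes on either side lie between -0.23 and 0.24, and the Cd300 genes lie on both sides of 0.

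Promoter sequences of 7 of the 10 genes were found in the RefSeq promoter table of GRCm38.p6, which gives 250 bases before to 50 after a gene's start. Trem2 and Treml4 are shown as those of the 10 genes with the largest changes. Cd300lf beside Cd300lb is shown as a pair of which only the first was called. The windows are chr17:48346151-48346450, plus strand for Trem2, chr17:48264045-48264344, plus strand for Treml4, chr11:115133943-115134242, minus strand for Cd300lf and chr11:114934322-114934621, minus strand for Cd300lb. Capitals mark matches on either strand to 4 motifs, namely GAGGAA (the core of PU.1, a master factor of myeloid genes), TTGCNNAA (C/EBP), TGANTCA (AP-1) and CTGTCA (TGIF).
Trem2: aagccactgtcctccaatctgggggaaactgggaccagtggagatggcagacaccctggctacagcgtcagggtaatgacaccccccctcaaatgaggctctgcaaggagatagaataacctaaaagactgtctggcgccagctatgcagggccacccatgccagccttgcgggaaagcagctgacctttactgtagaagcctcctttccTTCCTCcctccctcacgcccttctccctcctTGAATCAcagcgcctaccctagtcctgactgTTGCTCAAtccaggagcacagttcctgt
Treml4: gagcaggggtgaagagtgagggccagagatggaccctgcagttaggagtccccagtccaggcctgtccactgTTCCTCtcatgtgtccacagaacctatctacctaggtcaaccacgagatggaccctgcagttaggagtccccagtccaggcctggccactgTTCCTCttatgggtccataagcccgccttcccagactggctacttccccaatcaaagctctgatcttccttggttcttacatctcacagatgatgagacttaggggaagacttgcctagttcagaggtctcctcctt
Cd300lf: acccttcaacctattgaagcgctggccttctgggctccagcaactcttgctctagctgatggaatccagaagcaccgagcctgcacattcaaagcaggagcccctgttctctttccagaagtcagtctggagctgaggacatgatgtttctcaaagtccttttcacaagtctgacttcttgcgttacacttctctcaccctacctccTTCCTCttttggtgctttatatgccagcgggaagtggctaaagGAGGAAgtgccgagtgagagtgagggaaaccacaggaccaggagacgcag
Cd300lb: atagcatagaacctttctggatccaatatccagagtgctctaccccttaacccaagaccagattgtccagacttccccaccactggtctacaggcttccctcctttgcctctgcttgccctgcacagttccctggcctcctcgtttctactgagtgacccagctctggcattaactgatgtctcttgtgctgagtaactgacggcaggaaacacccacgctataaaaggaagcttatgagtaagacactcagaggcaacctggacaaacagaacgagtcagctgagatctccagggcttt

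GAGGAA stood in 5 of the 7 promoters (Trem1, Trem2, Treml4, Cd300lf and Cd300a) and in 28.3% of all 32851 promoter windows of the table. TTGCNNAA stood in 2 (Trem2 and Cd300a, 10.8% of all windows), TGANTCA in 1 (Trem2, 7.81%) and CTGTCA in 2 (Trem1 and Treml1, 19.2%). The Cd300lb window held no match to the 4 motifs, and Treml1, which rose, held only CTGTCA. A match describes the letters of the window and not binding.

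Genes for other receptors of the same design and their adaptors moved in both directions. Of 12 measured genes for other DAP12, DAP10 or gamma chain receptors and their adaptors, 3 rose and 2 fell (11.5% higher and 13.2% lower among all probe sets), with a median log2 fold change of 0.14. Receptors known to pair with DAP12 stood among those that rose, fell and were not called. Several of the genes not called were dim, the dimmest at 14.5 to 18.3 over the 6 arrays. Whether these lay above background was not tested. Sirpb1a read 467, 403 and 608 in pMIG and 2407, 2655 and 2979 in the TGIF1-labelled arrays (5.50-fold), Cd200r4 rose 4.51-fold and the lectin receptor Clec5a 2.24-fold. Sirpb1a had 4 probe sets, of which only the one with the highest mean over the 6 arrays is given. Whether it also reads related genes was not tested. Pilrb1, an activating receptor that also pairs with DAP12, fell by 0.77 on the log2 scale, and Hcst fell as given above. Without moderation the fall of Pilrb1 was lost too (adjusted p = 0.0716), so that 0 genes of the list were called lower, and without pMIG replicate 3 only 1 was. Several other alternatives called 3 lower, among them centring each array on its median and leaving out pMIG-TGIF1 replicate 3.

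Of 17 other inhibitory receptors and relatives 10 rose and 2 fell (11.5% higher and 13.2% lower among all probe sets), with a median log2 fold change of 0.48. The list held Lilra5, an activating relative, and without it, a count made after its values were seen, 9 of 16 rose and 2 fell. Klra17, which encodes Ly49Q, rose 3.47-fold, Cd200r1 3.01-fold, Pirb 2.67-fold, Siglecf 1.91-fold and Sirpa, which reads the signal CD47, 1.78-fold. Klra17 was dim, at 15.6 to 17.9 in pMIG and 51.5 to 72.8 in the TGIF1-labelled arrays. Whether it lay above background in pMIG was not tested, which limits how its fold can be read. Cd33, a sialic acid-binding lectin whose inhibitory role is known from human cells, read 2746, 2433 and 2883 in pMIG and 1253, 1152 and 1371 in the TGIF1-labelled arrays and fell by 1.09 on the log2 scale.

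Genes that act below the receptors moved in both directions. Of 28 kinases, scaffolds and effectors downstream of the DAP12 ITAM, 10 rose, 7 fell and 11 were not called (11.5% higher and 13.2% lower among all probe sets), with a median log2 fold change of 0.073. Syk, the kinase that the ITAM recruits, read 655, 536 and 562 in pMIG and 405, 444 and 401 in the TGIF1-labelled arrays, a fall of 0.49 ± 0.11 on the log2 scale (limma adjusted p = 0.00623) that was lost without moderation (adjusted p = 0.0556). Lat2, a membrane scaffold (-1.30), Card9, which links ITAM receptors to NF-kB (-1.20), Dok3, a brake on ITAM signalling (-1.17), and Btk, a Tec family kinase (-0.85), fell. Blnk, a scaffold of SYK (3.15-fold), and Fgr, a Src family kinase (2.50-fold), rose.

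Of 7 effectors of ITIMs 1 fell and 0 rose in limma (1 and 2 at an unadjusted p under 0.05), a share of falls near the 13.2% of all probe sets. Inpp5d, which encodes the lipid phosphatase SHIP-1, read 1798, 1744 and 1782 in pMIG and 942, 1015 and 1060 in the TGIF1-labelled arrays and fell by 0.82 ± 0.090 on the log2 scale (limma adjusted p = 0.000100). Ptpn6, which encodes SHP-1, differed by 0.22 ± 0.086 and was not called (limma adjusted p = 0.0930). The intensity trend with a robust prior (adjusted p = 0.0330) and the fit without moderation (0.0145) called it. In 13 of 15 alternatives Ptpn6 stayed uncalled. Over all of them its log2 difference lay between 0.10 and 0.24, with an adjusted p of up to 0.430.

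Among 12 reported TREM ligands, coreceptors and proteases 3 rose and 2 fell, with a median log2 fold change of 0.10. The share that fell is near the 13.2% of all probe sets called lower, and 11.5% were called higher. Plxna1, a plexin that associates with TREM2 and DAP12, read 108, 112 and 106 in pMIG and 407, 342 and 288 in the TGIF1-labelled arrays (3.16-fold). Clu, an apolipoprotein bound by TREM2, rose 1.86-fold. Psen2, a catalytic subunit of gamma-secretase, rose 1.53-fold. Hmgb1 fell by 0.33 on the log2 scale, a call lost on leaving out any array other than pMIG-TGIF1 replicate 2 (adjusted p = 0.0851 to adjusted p = 0.111), in the replicate block (0.0711), with quantile normalization (0.0878) and without moderation (0.0978).

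**Figure D4:**
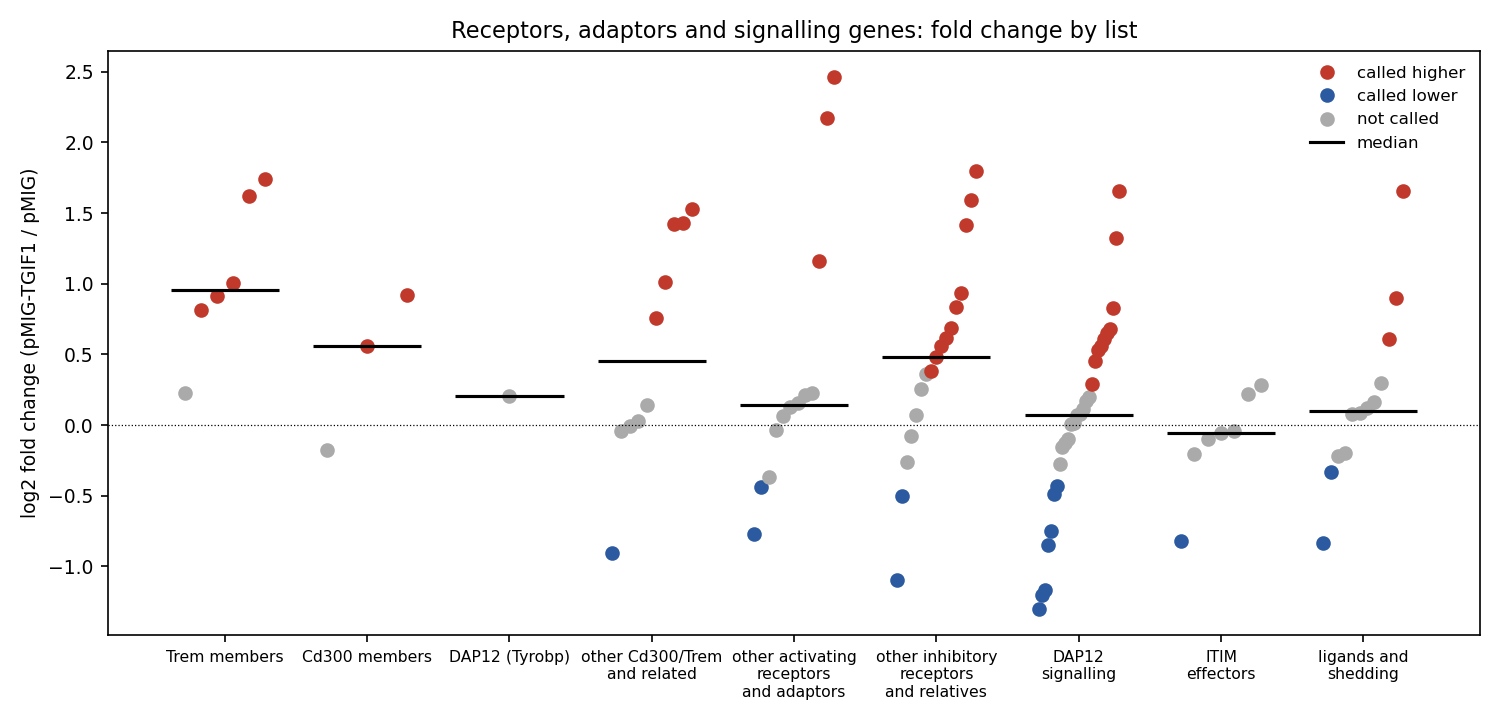
Log2 fold change of pMIG-TGIF1 over pMIG (vertical axis) of each measured gene by list, red for genes called higher, blue for genes called lower and grey for genes not called, with a line at each list's median. The medians are 0.96 for the 6 Trem genes, 0.48 for other inhibitory receptors and relatives and 0.073 for DAP12 signalling genes.

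The genes whose profile over the 6 arrays lay nearest to that of Treml4 were Myadm, Abcg3 and Igfbp6, at root mean square distances of 0.055, 0.094 and 0.098 on the log2 scale after each gene was set to its pMIG mean. Nearest to Cd300lf were Metrnl (0.031), Il6st, the shared signalling receptor of the IL-6 family (0.047), and Avil (0.051). Markers of other cells were also read beside the receptors, and counts of 1 gene in the short lists are near the 11.5% of all probe sets called higher and the 13.2% called lower. Of 6 osteoclast markers 4 rose. The protease gene Ctsk read 34.6 to 37.7 in pMIG and 162 to 321 in the TGIF1-labelled arrays, and the calcitonin receptor Calcr read 29.7 to 32.2 and 26.3 to 35.9. Of 8 neutrophil markers 3 rose and 1 (Ngp) fell, and of 6 dendritic cell markers 1 (Itgax) rose and 0 fell (also 1 and 0 at an unadjusted limma p under 0.05). Of 6 B cell, 7 T and NK cell and 6 erythroid markers 1, 1 and 2 rose, and of 6 mast cell and basophil markers 1 (Ms4a2) fell. The part of other cell types in the results was not tested.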

How the data were processed

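The data are 6 arrays (Affymetrix Mouse Gene 1.0 ST), 3 pMIG and 3 pMIG-TGIF1, grouped by sample title. The intensity values were deposited by the authors on a linear scale after processing for which the submitters' processing notes list RMA and Partek, with no version or setting. A p-value and a signed fold change per probe set were also deposited by the authors, with a test and genome build not given in the sources used here. Of 28853 probe sets 25123 carry a symbol and were tested, without a filter on dim ones. Symbols were updated through RefSeq (18873 by accession). Log2 intensities entered lmFit and eBayes of limma 3.58.1 (R 4.3.3), and the threshold for a call was 0.05 after Benjamini-Hochberg adjustment over all 25123. SE and 95% CI are those of the moderated fit. The fit was tested on simulated data with independent noise and few changed genes. That check cannot show how the fit does where arrays share a culture. For a gene of a list with several probe sets the one with the highest mean was used.

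The genes and lists were chosen with earlier results of these data known. Named were the 10 genes, up to 6 called genes per list with the smallest p, Fcer1g, Hcst, Syk, Ptpn6, Inpp5d and Tgif1. Added were the 3 nearest profiles, after the exclusions given above, of the most changed Trem and Cd300 gene among the 10. Named cell markers and flanking genes were chosen after their values were seen. List genes without a matched probe set were not analysed here, and some genes that the rule takes are withheld from the text. Alternatives are given in the closing section.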

Additional observations from a re-analysis of the deposited data

How the results depend on the processing

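The 7 rises held their call and direction in all alternatives except the fit without moderation, which called 5 (Trem1 and Cd300a were lost, as given above), and 0 of the 10 genes were called lower in any. Leaving out 1 array at a time called 7 higher and 0 lower each time. Cd300lb kept its sign, between -0.29 and -0.051, and Tyrobp lay between 0.093 and 0.29. Over all probe sets, calls went from 2892 higher and 3308 lower to 1754 and 1647 without moderation, to 5007 lower with array median centring, and to 2323 to 2724 higher and 2537 to 3187 lower on leaving out 1 array. The cause was not tested. Same-numbered arrays deviated from their group means with correlations of -0.19, -0.11 and -0.049. With 3 arrays per group this cannot show whether the numbers pair cultures, which the labels do not state. The replicate block called 7 of the 10 genes higher and, over all probe sets, 2579 higher and 2957 lower. The lower calls among TREM ligands and proteases fell from 2 to 1 in several alternatives through Hmgb1. The 3 arrays per group and dim probe sets without detection calls limit what small differences can show.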
